A study of Mus musculus with 5 samples.

Results

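The 40 genes described here are markers of the endothelium, the cell layer that lines blood and lymphatic vessels, measured by RNA-seq in whole mouse hearts. They were chosen with earlier results of these data known and placed in vascular subtypes from textbook knowledge. They comprise 25 pan-endothelial genes, 2 arterial, 4 venous, 4 capillary and sprouting, and 5 lymphatic genes. All 40 were found among the 49671 genes of the count table and all 40 were among the 14880 genes with enough counts for testing. Several are not restricted to the class they were placed in: Prox1 is also made by cardiomyocytes, Pdpn by epicardium and mesothelium, and Lyve1 by resident macrophages.

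Hearts came from C57BL6/J mice at postnatal day 2. CharmeKO animals carry an inserted PolyA signal in Charme, the locus of a muscle-restricted long non-coding RNA, and CharmeWT littermates do not. Hearts were pooled by genotype before RNA extraction, giving 3 CharmeWT pools of 9 hearts and 2 CharmeKO pools of 3 hearts. Pool size thus differed with genotype, the effects of both cannot be told apart, and nothing states how many litters went into a pool.

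Endothelial cells are specified and maintained by the VEGF receptors Kdr and Flt1, the angiopoietin receptor Tek with its partner Tie1, and transcription factors of the ETS (Erg, Fli1) and SOXF (Sox7, Sox17, Sox18) families. Cells joined by Cdh5 and Cldn5 form the vessel wall. Arterial cells express the connexin Gja4 and the factor Sox17, whereas venous identity depends on the nuclear receptor Nr2f2. The peptide apelin (Apln) is made by sprouting cells and binds Aplnr on veins and capillaries. Lymphatic vessels are built under the control of Prox1 and respond to VEGF-C through the receptor Flt4. In the newborn heart the capillary bed grows together with the myocardium.

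Library composition differed between pools in ways that bear on the values below. Gene counts summed to 16721055 in the shallowest pool and 21646378 in the deepest. Mitochondrially encoded genes took 21.1% of the counts in CharmeKO pool 1 and 9.68% to 11.2% in the other pools, and a list of salivary gland genes took 2.55% of the counts in CharmeKO pool 2, 0.0274% in CharmeKO pool 1 and under 0.0001% in the CharmeWT pools. Charme itself, listed by name, had 810, 183 and 276 counts in CharmeWT pools 1 to 3 and 57 and 79 counts in CharmeKO pools 1 and 2. Its log2 fold change was -2.49 ± 0.55 (SE), with an adjusted p of 0.0763 from edgeR's quasi-likelihood test, and the count does not separate the part before the inserted signal from the part after it. Lung epithelial genes summed to 4.66 CPM (counts scaled to library size) or less in every pool.

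The 40 genes together held 0.286%, 0.356% and 0.350% of the counts in CharmeWT pools 1 to 3, 0.212% in CharmeKO pool 1 and 0.311% in CharmeKO pool 2. The ratio between the CharmeKO pools, given further on, varied with the base composition of the transcripts. GC content, the percentage of G and C over a gene's transcripts, ran from 42.2% for Emcn to 60.9% for Sox18. To show what this range looks like in sequence, 60 bases from the middle of the longest coding exon are given for the 3 members of lowest and the 3 of highest transcript GC content, 5′ to 3′ on the coding strand, with G and C in capitals (GENCODE M21 transcripts, build GRCm38).
Emcn: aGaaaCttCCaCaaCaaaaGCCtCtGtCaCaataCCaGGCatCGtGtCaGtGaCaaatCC
Mmrn1: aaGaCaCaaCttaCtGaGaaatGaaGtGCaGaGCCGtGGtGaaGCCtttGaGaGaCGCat
Clec14a: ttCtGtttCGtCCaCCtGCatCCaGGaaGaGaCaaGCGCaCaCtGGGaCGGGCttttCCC
Cldn5: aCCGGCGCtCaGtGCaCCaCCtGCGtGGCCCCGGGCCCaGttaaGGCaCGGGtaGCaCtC
Plvap: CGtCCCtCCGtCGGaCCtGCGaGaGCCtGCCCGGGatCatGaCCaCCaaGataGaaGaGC
Sox18: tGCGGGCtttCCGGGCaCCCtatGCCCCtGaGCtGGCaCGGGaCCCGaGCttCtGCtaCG
The windows lie at chr3:137372759-137372818 (Emcn, plus strand), chr6:60976776-60976835 (Mmrn1, plus), chr12:58268116-58268175 (Clec14a, minus), chr16:18777293-18777352 (Cldn5, plus), chr8:71507924-71507983 (Plvap, minus) and chr2:181670571-181670630 (Sox18, minus). G and C made up 45% and 46.7% of the Emcn and Mmrn1 windows and 63.3% to 70.0% of those of Plvap, Sox18 and Cldn5. Clec14a stands apart from the other low-GC genes, since its coding sequence held 57.0% G and C and its whole transcripts 44.6%.

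Levels are given as FPKM (fragments per kilobase of annotated exon, scaled to library size), the scale on which genes of different length can be set side by side. In CharmeWT hearts the endothelial genes covered a wide range. Cdh5, the cadherin of endothelial junctions, was the most abundant member at 76.5 ± 12.9 FPKM (SD, n = 3), and the lymphatic matrix protein gene Mmrn1 the least at 0.558 ± 0.162 FPKM. Cdh5 and Eng, a co-receptor for TGF-beta family ligands, at 64.3 ± 13.7 FPKM, were not separated by their ranges. The tight junction gene Cldn5 followed at 55.4 ± 1.35 FPKM and the water channel gene Aqp1 at 53.1 ± 1.69 FPKM, and their ranges overlapped too. Within the classes Gja4 (15.5 ± 1.72 FPKM) was the higher of the arterial genes, Aplnr (30.4 ± 7.05 FPKM) the highest venous gene and Prox1 (10.8 ± 0.680 FPKM) the highest lymphatic gene. The plot of FPKM by pool shows all members.

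**Figure D1:**
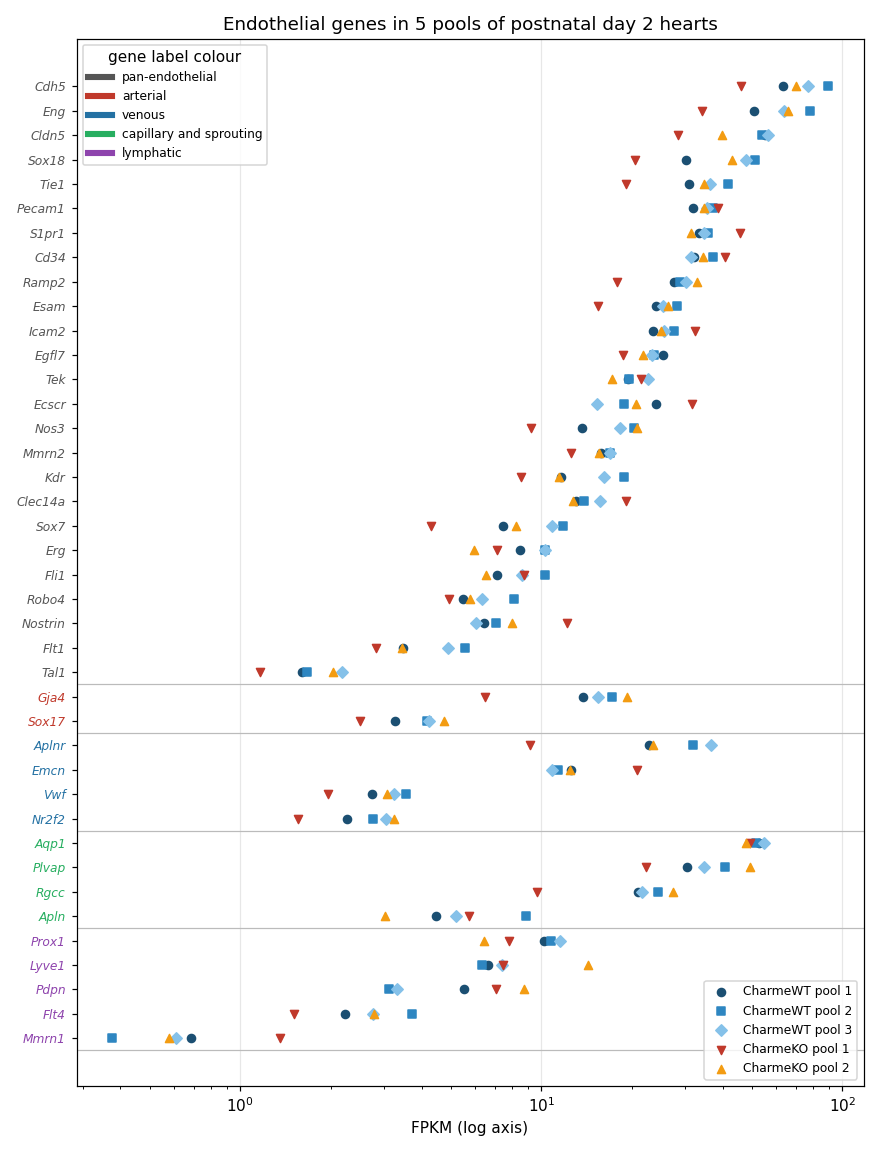
FPKM (log axis) of the 40 endothelial genes in each of the 5 pools, grouped by vascular subtype and ordered by mean level in the CharmeWT pools. Blue symbols are the CharmeWT pools, the red triangle CharmeKO pool 1 and the orange triangle CharmeKO pool 2, and the red triangle is the lowest symbol for 23 genes and the highest for 9.

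To ask whether endothelial expression depended on the genotype, the CharmeKO pools were compared with the CharmeWT pools. By edgeR's quasi-likelihood test over all 14880 genes, none of the 40 members passed the threshold of an adjusted p under 0.1 with a mean FPKM of at least 1. The same rule called 1.53% of all genes higher and 0.524% lower in CharmeKO hearts. Without adjustment 10 of the 40 members had a p under 0.05 by this test, as did 2767 of all 14880 genes. The lowest adjusted p among the members, that of Cldn5, was 0.137. The fitted log2 fold change was negative for 28 members and positive for 12, with a median of -0.22, beside 0.02 over all genes tested. After correction of each pool for length and GC trends these medians were -0.12 and -0.03. Both CharmeKO pools lay below every CharmeWT pool for 8 members, namely Kdr, Flt1, Cldn5, Egfl7, Erg, Mmrn2, Aqp1 and Prox1, where 18.2% of all genes did so. They lay above for Nostrin, Lyve1 and Pdpn, where 17.8% of all genes did so, and the groups overlapped for the other 29. With 3 pools against 2, an exact two-sided permutation test of a single gene cannot give a p below 0.1. Because the RNA came from whole hearts, fewer endothelial cells and less RNA of a gene per endothelial cell cannot be told apart. The count of called members changed with the test: the likelihood ratio test in edgeR called Pdpn higher and Cldn5 and Prox1 lower (3.92% of all genes called higher, 2.35% lower), and DESeq2 called the same 3 genes and Aplnr, which was lower (4.33% higher, 3.21% lower).

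**Figure D2:**
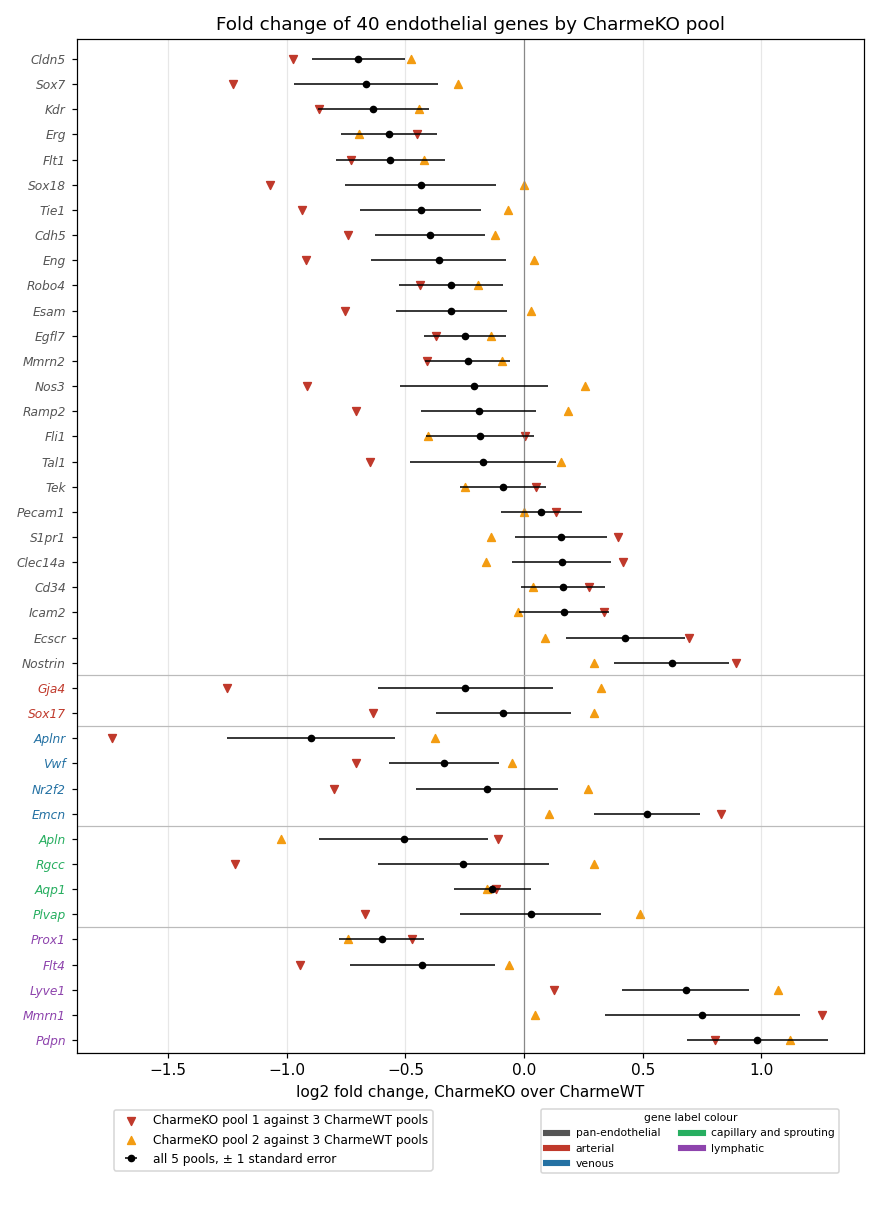
Log2 fold change of CharmeKO over CharmeWT for each endothelial gene, grouped by vascular subtype. Black points with bars are the fit to all 5 pools ± 1 standard error, and triangles the fits with only CharmeKO pool 1 (red) or only CharmeKO pool 2 (orange) against the 3 CharmeWT pools. No gene passed the test in the fit to all pools, and the triangles stand on opposite sides of 0 for genes such as Gja4, Rgcc, Plvap and Nos3.

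Among the pan-endothelial genes, Cldn5 had the lowest adjusted p. This claudin seals the junctions between endothelial cells, and its gene lies at chr16:18776847-18778262 (ENSMUSG00000041378). Its level was 55.3, 54.1 and 56.8 FPKM in CharmeWT pools 1 to 3, and 28.4 and 39.7 FPKM in CharmeKO pools 1 and 2. Both CharmeKO pools were low, pool 1 at 51.2% and pool 2 at 71.8% of the CharmeWT mean, while the CharmeWT pools stayed within a narrow range. The fitted log2 fold change was -0.70 ± 0.20 (SE), with an adjusted p of 0.137, and Cldn5 passed the threshold by the likelihood ratio test (adjusted p = 0.0518), DESeq2 (0.0374) and the quasi-likelihood test after each pool was corrected for length and GC trends (0.0768, with 0.840% of all genes called lower).

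The VEGF receptor genes ranked the 5 pools in the same order. Kdr, the main signalling receptor for VEGF-A, was at 11.7, 18.8 and 16.2 FPKM in CharmeWT pools and at 8.57 and 11.4 FPKM in CharmeKO pools. Flt1, a receptor that also acts as a sink for VEGF, was at 3.48, 5.56 and 4.89 FPKM in CharmeWT pools and at 2.81 and 3.46 FPKM in CharmeKO pools. In both genes CharmeWT pool 1 was the lowest CharmeWT pool and CharmeKO pool 2 lay just under it, so the gap between the groups was small against the spread within CharmeWT. The log2 fold changes were -0.64 ± 0.23 and -0.56 ± 0.23, with adjusted p-values of 0.206 and 0.240. Their ligand Vegfa, made largely by cardiomyocytes, overlapped between the groups (82.8 to 121 CPM in CharmeWT, 135 and 81.8 CPM in CharmeKO pools 1 and 2).

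The angiopoietin receptor genes differed from each other in CharmeKO pool 1. Tie1 was at 31.0, 41.6 and 36.4 FPKM in CharmeWT pools, 19.1 FPKM in CharmeKO pool 1 and 34.6 FPKM in CharmeKO pool 2. Tek was at 19.3, 19.5 and 22.6 FPKM in CharmeWT pools, 21.3 FPKM in CharmeKO pool 1 and 17.2 FPKM in CharmeKO pool 2. Tie1 was thus low in CharmeKO pool 1 alone, while Tek was inside the CharmeWT range there and under it in CharmeKO pool 2. Transcripts of Tie1 held 57.8% G and C and those of Tek 47.2%.

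Of the junction and surface genes, Cdh5 was at 63.5, 89.3 and 76.6 FPKM in CharmeWT pools and at 45.9 and 70.2 FPKM in CharmeKO pools. Eng was at 50.7, 78.2 and 64.1 FPKM in CharmeWT pools and at 34.1 and 66.0 FPKM in CharmeKO pools. For both, CharmeKO pool 1 was the lowest of all pools and CharmeKO pool 2 fell between CharmeWT pools, with log2 fold changes of -0.40 ± 0.23 (adjusted p = 0.377) and -0.36 ± 0.28 (0.511). Esam, an adhesion molecule of endothelial tight junctions, gave the same picture, at 15.4 FPKM in CharmeKO pool 1 against 24.1 to 28.2 FPKM in CharmeWT pools. The adhesion molecules Pecam1 and Icam2 and the sialomucin Cd34 were highest in CharmeKO pool 1, at 38.5, 32.3 and 40.8 FPKM, and Pecam1, the most used marker of endothelium, was the pan-endothelial gene nearest to 0 in the fit (log2 fold change 0.07 ± 0.17, adjusted p = 0.841).

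The transcription factor genes did not move as a block. Erg, an ETS factor that sustains endothelial identity, was at 8.50, 10.3 and 10.2 FPKM in CharmeWT pools and at 7.11 and 5.96 FPKM in CharmeKO pools, so that both CharmeKO pools were low and pool 2 the lower (log2 fold change -0.57 ± 0.20, adjusted p = 0.197). The related Fli1 overlapped between the groups (7.10 to 10.3 FPKM in CharmeWT, 8.73 and 6.54 FPKM in CharmeKO). The SOXF genes Sox7 and Sox18 were lowest in CharmeKO pool 1, at 42.9% and 47.7% of the CharmeWT mean, with CharmeKO pool 2 at 82.3% and 99.6%. Tal1, a factor shared with blood progenitors, was low everywhere, at 1.61 to 2.18 FPKM in CharmeWT pools and 1.16 and 2.02 FPKM in CharmeKO pools.

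Of the remaining pan-endothelial genes, Nos3, the endothelial nitric oxide synthase, showed the largest difference between the CharmeKO pools. It was at 13.6, 20.3 and 18.3 FPKM in CharmeWT pools, the lowest of all at 9.27 FPKM in CharmeKO pool 1, and the highest at 20.7 FPKM in CharmeKO pool 2. Its partner Nostrin, which helps traffic the enzyme, went the other way, at 6.42, 7.07 and 6.05 FPKM in CharmeWT pools and 12.1 and 7.97 FPKM in CharmeKO pools (log2 fold change 0.62 ± 0.24, adjusted p = 0.228). Ramp2, the co-receptor of adrenomedullin, was at 61.4% of the CharmeWT mean in CharmeKO pool 1 and at 113% in CharmeKO pool 2. The secreted Egfl7, the matrix gene Mmrn2 and the guidance receptor Robo4 lay between 74.0% and 77.6% of the CharmeWT mean in CharmeKO pool 1 and between 87.2% and 93.8% in CharmeKO pool 2. The surface genes Clec14a, Ecscr and S1pr1, the last a receptor for sphingosine-1-phosphate, were at 134%, 163% and 132% of the CharmeWT mean in CharmeKO pool 1 and at 89.5%, 106% and 90.8% in CharmeKO pool 2.

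Both arterial genes were lower in CharmeKO pool 1 and higher in CharmeKO pool 2 than in any other pool. Gja4 encodes connexin 37 of arterial gap junctions and lies at chr4:127311421-127314039 (ENSMUSG00000050234). It was at 13.7, 17.2 and 15.4 FPKM in CharmeWT pools, 6.51 FPKM in CharmeKO pool 1 and 19.3 FPKM in CharmeKO pool 2, the lowest and the highest of the 5 pools. Sox17 was at 3.26, 4.16 and 4.22 FPKM in CharmeWT pools, 2.51 FPKM in CharmeKO pool 1 and 4.75 FPKM in CharmeKO pool 2. Fitted together, the CharmeKO pools gave log2 fold changes of -0.25 ± 0.37 (adjusted p = 0.737) and -0.09 ± 0.28 (0.888, and 0.06 after the length and GC correction), with the pools on either side of 0. Of 13 further arterial genes, among them Efnb2, Dll4, Notch1 and Gja5, none was called and 9 had negative fold changes, with a median of -0.24. Their median log2 ratio of CharmeKO pool 1 to pool 2 was -0.43, with 10 lower and 3 (Hey2, Nrp1 and Bmx) higher in pool 1.

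The venous gene Aplnr, the receptor of apelin, had the lowest value of any member in CharmeKO pool 1 relative to CharmeWT. It was at 22.7, 32.0 and 36.6 FPKM in CharmeWT pools, 9.18 FPKM in CharmeKO pool 1 and 23.4 FPKM in CharmeKO pool 2. Pool 1 was far under the others at 30.2% of the CharmeWT mean, and pool 2 was inside the CharmeWT range (log2 fold change -0.90 ± 0.35, adjusted p = 0.230). Emcn, a sialomucin of veins and capillaries, had the opposite order, at 12.5, 11.4 and 10.8 FPKM in CharmeWT pools, 20.7 FPKM in CharmeKO pool 1 and 12.4 FPKM in CharmeKO pool 2 (0.52 ± 0.22, adjusted p = 0.256, and 0.18 after the length and GC correction). Vwf, the von Willebrand factor gene, was at 2.74, 3.56 and 3.24 FPKM in CharmeWT pools and 1.95 and 3.07 FPKM in CharmeKO pools, and Nr2f2 at 2.26, 2.77 and 3.04 FPKM in CharmeWT pools and 1.55 and 3.24 FPKM in CharmeKO pools. For these last genes too CharmeKO pool 1 alone was low. Among 4 further venous genes tested, Nrp2, a VEGF-C and semaphorin co-receptor, was called lower in CharmeKO (46.8, 64.3 and 54.2 CPM in CharmeWT pools, 28.02 and 32.4 CPM in CharmeKO pools, log2 fold change -0.87 ± 0.20, adjusted p = 0.0923).

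Of the capillary and sprouting genes, Aqp1 varied little between the pools. It was at 52.7, 51.7 and 54.99 FPKM in CharmeWT pools and 49.2 and 47.7 FPKM in CharmeKO pools, slightly low in both (-0.13 ± 0.16, adjusted p = 0.673). Plvap, which forms the diaphragms of fenestrae and caveolae, was at 30.5, 40.8 and 34.6 FPKM in CharmeWT pools, lowest at 22.3 FPKM in CharmeKO pool 1 and highest at 49.5 FPKM in CharmeKO pool 2. Rgcc, a regulator of the cell cycle abundant in capillary endothelium, followed Plvap, at 21.0, 24.5 and 21.6 FPKM in CharmeWT pools and at 9.64 and 27.4 FPKM in CharmeKO pools. Apln, the apelin gene, was the exception, at 4.48, 8.91 and 5.21 FPKM in CharmeWT pools, 5.75 FPKM in CharmeKO pool 1 and 3.03 FPKM in CharmeKO pool 2. Its lowest value was thus in CharmeKO pool 2, where its receptor Aplnr was at 76.9% of the CharmeWT mean. None of 10 further capillary genes was called, with 7 negative fold changes.

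The lymphatic list held both members whose adjusted p came next after that of Cldn5, and they differed in direction. Prox1, the master regulator of lymphatic fate, at chr1:190118035-190170714 (ENSMUSG00000010175), was at 10.2, 10.7 and 11.5 FPKM in CharmeWT pools and 7.84 and 6.46 FPKM in CharmeKO pools. Both CharmeKO pools were under the narrow CharmeWT range (-0.60 ± 0.18, adjusted p = 0.152). Pdpn, podoplanin, at chr4:143267431-143299564 (ENSMUSG00000028583), was at 5.55, 3.11 and 3.31 FPKM in CharmeWT pools and 7.05 and 8.72 FPKM in CharmeKO pools. CharmeWT pool 1 was the highest of its group and came nearest to the CharmeKO pools (0.98 ± 0.30, adjusted p = 0.154). The summed level of 5 epicardial and mesothelial genes moved with Pdpn, at 86.8, 23.7 and 46.4 CPM in CharmeWT pools 1 to 3 and 127 and 111 CPM in CharmeKO pools. In that list both CharmeKO pools lay above every CharmeWT pool for 4 of 5 genes, where 17.8% of all genes did so. Among them were Upk3b (4.92 to 35.02 CPM in CharmeWT, 48.6 and 44.2 CPM in CharmeKO) and Msln (5.31 to 29.6 CPM in CharmeWT, 42.1 and 39.6 CPM in CharmeKO). None of the 5 was called, and their part in the Pdpn values was not tested. Prox1 is made by cardiomyocytes too, and of 6 cardiomyocyte genes none was called, with 3 positive and 3 negative fold changes. Their sum was at 35421 to 47009 CPM in CharmeWT pools and 36368 and 37759 CPM in CharmeKO pools, inside the CharmeWT range. The most abundant, Actc1 and Myh6, went in opposite directions, with log2 fold changes of 0.22 and -0.65. Myh6 was under every CharmeWT pool (14046 to 17237 CPM in CharmeWT, 7339 and 12521 CPM in CharmeKO). The part of cardiomyocytes in the Prox1 values was not tested.

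Lyve1, a hyaluronan receptor, was high in CharmeKO pool 2 only. It was at 6.65, 6.35 and 7.39 FPKM in CharmeWT pools, 7.47 FPKM in CharmeKO pool 1 and 14.2 FPKM in CharmeKO pool 2 (0.68 ± 0.27, adjusted p = 0.227). CharmeKO pool 1 lay above the highest CharmeWT pool by less than the spread among those pools. The summed macrophage list was also highest in CharmeKO pool 2, at 119, 71.2 and 97.8 CPM in CharmeWT pools and 96.9 and 155 CPM in CharmeKO pools. Of its 6 genes 4 had positive fold changes and 2, Adgre1 (-0.22) and Cd68 (-0.14), negative ones. Only 1 was called, Mrc1, which Lyve1-positive macrophages express (13.8, 10.4 and 14.3 CPM in CharmeWT, 26.5 and 26.1 CPM in CharmeKO, log2 fold change 1.03 ± 0.22, adjusted p = 0.0689). Unlike Lyve1, Mrc1 was at nearly the same level in both CharmeKO pools. The most abundant macrophage genes, C1qb and C1qa, were at 46.7 and 39.7 CPM in CharmeKO pool 2 and at 24.6 and 21.9 CPM in CharmeKO pool 1. In CharmeWT pools C1qb was at 17.4 to 36.2 CPM and C1qa at 16.1 to 29.2 CPM, so that CharmeKO pool 1 was inside both ranges. The part of macrophages in the Lyve1 values was not tested. Flt4 was at 2.23, 3.73 and 2.76 FPKM in CharmeWT pools, 1.51 FPKM in CharmeKO pool 1 and 2.77 FPKM in CharmeKO pool 2. Mmrn1 reversed that order, at 0.686, 0.376 and 0.611 FPKM in CharmeWT pools, 1.35 FPKM in CharmeKO pool 1 and 0.580 FPKM in CharmeKO pool 2, and rested on few fragments, between 39 and 112 per pool. Of the 3 further lymphatic genes tested none was called and all had negative fold changes.

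The subtypes were then set against the pan-endothelial genes of the same pool, by the difference of mean log2 CPM. For arterial genes the difference was -1.71, -1.66 and -1.63 in CharmeWT pools, -2.25 in CharmeKO pool 1 and -1.25 in CharmeKO pool 2. Venous genes were at -0.40, -0.44 and -0.31 in CharmeWT pools, -0.63 in CharmeKO pool 1 and -0.28 in CharmeKO pool 2. Capillary and sprouting genes were at -0.68, -0.57 and -0.74 in CharmeWT pools, -0.82 in CharmeKO pool 1 and -0.64 in CharmeKO pool 2. In these classes CharmeKO pool 1 was the lowest pool, and CharmeKO pool 2 was above the CharmeWT pools for the 2 arterial and 4 venous genes and among them for capillary genes. The further lists were not set against the pan-endothelial genes, so classes and further lists are compared here without subtraction. Mean log2 CPM of the 2 arterial genes was 4.25, 4.59 and 4.52 in CharmeWT pools and 3.53 and 4.77 in CharmeKO pools. For the 4 venous genes it was 5.56, 5.81 and 5.84 in CharmeWT pools and 5.16 and 5.74 in CharmeKO pools. For 13 further arterial genes it was 4.46, 4.85 and 4.99 in CharmeWT pools and 4.28 and 4.65 in CharmeKO pools. For 4 further venous genes it was 4.72, 4.85 and 4.99 in CharmeWT pools and 4.26 and 4.61 in CharmeKO pools. On this scale CharmeKO pool 2 was above the CharmeWT pools for the 2 arterial genes only. Relative to the pan-endothelial genes, lymphatic genes were at -1.90, -2.37 and -2.15 in CharmeWT pools and -1.61 and -1.72 in CharmeKO pools. Both CharmeKO pools were thus higher, with Pdpn, Lyve1 and Mmrn1 of positive and Prox1 and Flt4 of negative fold change. Without subtraction, mean log2 CPM of these 5 genes was 4.06, 3.88 and 4.01 in CharmeWT pools and 4.17 and 4.29 in CharmeKO pools. The 3 further lymphatic genes tested went the other way, at 3.73, 3.93 and 3.96 in CharmeWT pools and 3.14 and 3.58 in CharmeKO pools. The median log2 fold change was -0.24 for pan-endothelial, -0.17 for arterial, -0.25 for venous, -0.19 for capillary and sprouting and 0.68 for lymphatic genes. These medians rested on the pool: with CharmeKO pool 1 alone they were -0.45, -0.94, -0.76, -0.39 and 0.13 in the same order, and with CharmeKO pool 2 alone -0.09, 0.31, 0.03, 0.07 and 0.04. After the length and GC correction they were -0.14, -0.11, -0.10, -0.24 and 0.44.

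The CharmeKO pools were next compared with each other, with 1 library on each side and hence no test between them. Counts allow an exact 95% binomial interval (Clopper-Pearson) on their ratio, which covers counting error only. CharmeKO pool 1 was the lower in 25 members and the higher in 15, where 50.5% of all genes were lower in pool 1. The median log2 ratio of pool 1 to pool 2 was -0.36, beside -0.01 over all genes, and the counting interval lay wholly below 0 for 25 members and wholly above 0 for 14, the exception being Aqp1. Such intervals narrow as counts rise, so abundant genes lie off 0 at small differences, and the share over all genes is not given. CharmeKO pool 1 was the lowest of the 5 pools for 23 members (33.9% of all genes) and the highest for 9 (34.1%). CharmeKO pool 2 fell within the CharmeWT range for 17 members, where 39.7% of all genes did so. It was above that range for 10 members and below it for 13, and the share of all genes on each side is not given. The adipose and skeletal muscle lists, like the salivary gland list, were highest in CharmeKO pool 2 as well. The 5 adipose genes summed to 0.170 to 5.43 CPM in CharmeWT pools, 45.997 CPM in CharmeKO pool 1 and 912 CPM in CharmeKO pool 2. Of the last sum Ucp1 made up 709 CPM and Adipoq 81.3 CPM. All 4 adipose genes tested were called higher in CharmeKO, where 1.53% of all genes were. The 6 skeletal muscle genes, led by Myh8 and Mylpf, summed to 4.997 to 5.96 CPM in CharmeWT pools, 17.2 CPM in CharmeKO pool 1 and 47.8 CPM in CharmeKO pool 2, with 2 of 5 called, while Myh4 was at 0 in every pool. Such tissues hold vessels too, and their part in the values of CharmeKO pool 2 was not tested.

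The largest ratio was that of Gja4, at -1.57 (95% interval -1.83 to -1.32) from 155 counts in CharmeKO pool 1 and 726 in CharmeKO pool 2. Rgcc followed at -1.51 (-1.80 to -1.23) from 125 and 562 counts, and Aplnr at -1.35 (-1.50 to -1.21) from 480 and 1934 counts. Mmrn1 had the largest ratio in favour of pool 1, at 1.22 (0.79 to 1.66) from 112 and 76 counts, and Nos3 was at -1.16 (-1.30 to -1.02) from 541 and 1914 counts. By class, the median ratio was -0.30 for pan-endothelial, -1.24 for arterial, -0.86 for venous, -0.55 for capillary and sprouting, and -0.31 for lymphatic genes.

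The fits with a single CharmeKO pool showed how far the comparison of genotypes rested on the pool. With CharmeKO pool 1 alone against the CharmeWT pools, 20 members were called lower and 5 higher, where 15.6% of all genes were called lower and 16.1% higher. The 5 higher members were Ecscr, Nostrin, S1pr1, Emcn and Mmrn1, and the 20 lower ones included Gja4, Sox17, Nr2f2, Vwf, Aplnr, Rgcc, Plvap, Cdh5, Kdr and Cldn5. With CharmeKO pool 2 alone, Lyve1 (log2 fold change 1.07, adjusted p = 0.00706) and Pdpn (1.12, 0.0702) were called higher and Prox1 (-0.74, 0.0415) lower, where 3.06% of all genes were called higher and 1.27% lower. Prox1 was the only member called by the quasi-likelihood test in both of these fits (-0.47, adjusted p = 0.0700 with pool 1), and Plvap changed sign, from 0.49 (adjusted p = 0.218) with pool 2 to -0.67 (0.0357) with pool 1. In these fits the single CharmeKO pool is assumed to vary as the CharmeWT pools do.

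The ratio of the CharmeKO pools varied with transcript GC content. Across the 40 members Pearson's r between GC content and log2 ratio was -0.631 and Spearman's rho -0.595, and across 14828 genes tested r was -0.432 and rho -0.529. These are descriptions across genes that share the same libraries and are not independent. The relation was that of CharmeKO pool 1: against the CharmeWT mean, r across members was -0.647 for CharmeKO pool 1 and 0.0245 for CharmeKO pool 2, and it was -0.320, 0.369 and -0.0229 for CharmeWT pools 1 to 3. Members below 45% GC, namely Emcn, Mmrn1, Clec14a and Nostrin, had a median log2 ratio of 0.67, beside 0.46 for all genes of that range. The 11 members between 45% and 50% were at 0.14, beside 0.15. The 12 members between 50% and 55% were at -0.46, beside -0.18, and the 10 between 55% and 60% at -0.88, beside -0.45. Cldn5, Plvap and Sox18, at 60% or more, had a median of -1.06, beside -0.62. Clec14a, whose coding window above is richer in G and C than its whole transcripts, had a log2 ratio of 0.58.

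**Figure D3:**
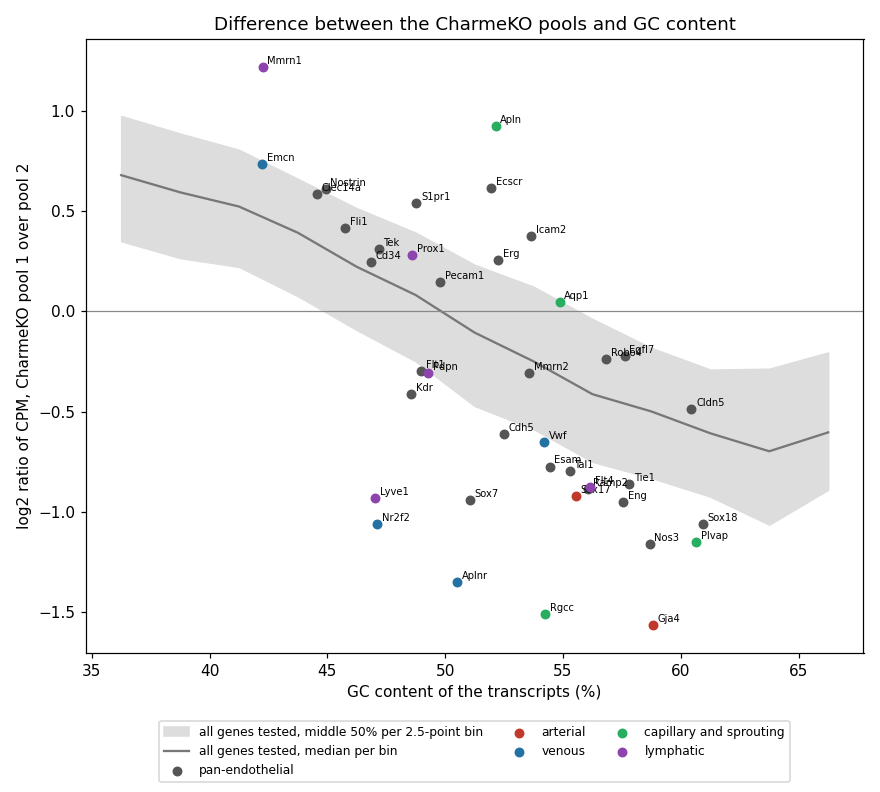
Log2 ratio of CPM in CharmeKO pool 1 over CharmeKO pool 2 against the GC content of the transcripts, with 1 point per endothelial gene coloured by vascular subtype. The grey line and band are the median and the middle 50% of all genes tested in bins of 2.5 percentage points of GC, and by bin 21 members lie under the band, Gja4, Rgcc and Aplnr lowest, 13 inside it and 6 above it (Apln, Ecscr, Erg, Icam2, Mmrn1 and S1pr1).

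The ratios were recomputed after the trends of each pool on length and on GC content were removed across all genes. The median of the members went from -0.36 to -0.32, beside 0.05 for all genes, and 21 members were then lower in CharmeKO pool 1 and 19 higher. Differences of several GC-rich genes shrank: Nos3 went from -1.16 to -0.58, Eng from -0.95 to -0.42, Tie1 from -0.86 to -0.31 and Cldn5 from -0.49 to 0.04. Others remained beyond -1 or passed it, with Rgcc at -1.27, Aplnr at -1.22, Nr2f2 at -1.18, Gja4 at -1.08 and Lyve1 at -1.06, and Apln was at 1.15 in the other direction. By class the corrected medians were 0.04 for pan-endothelial, -0.77 for arterial, -0.79 for venous, -0.09 for capillary and sprouting, and -0.34 for lymphatic genes. The mitochondrial share of CharmeKO pool 1 and the salivary share of CharmeKO pool 2 differed between the same libraries. Without mitochondrial and salivary gland genes in the library the median ratio of the members was -0.37, and 25 members were lower in pool 1, as with all genes. This setting changes only the scaling of each library, which moves the log2 ratios of all members by the same amount. It cannot show whether either share bears on the members.

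**Figure D4:**
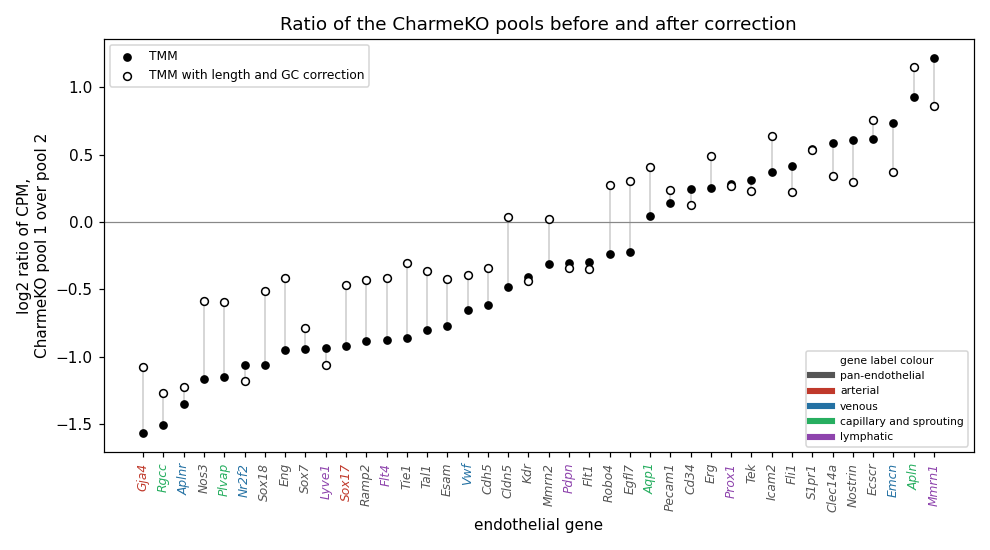
Log2 ratio of CPM in CharmeKO pool 1 over CharmeKO pool 2 for each endothelial gene, with TMM normalization (filled) and after correction for gene length and GC content (open), ordered by the uncorrected ratio. Lines join the values of a gene. Nos3, Plvap, Sox18 and Eng move towards 0, while Rgcc, Aplnr, Nr2f2 and Gja4 stay beyond -1 and Lyve1 moves from -0.93 to -1.06.

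Other genes of the endothelial pathways were examined for the same comparison of genotypes. Of 58 such genes 55 were tested. In this set 1 was called higher and 2 lower, where 1.53% of all genes were called higher and 0.524% lower. Fold changes were positive for 20 and negative for 35, with a median of -0.12. Over all 14880 genes tested 7715 were positive and 7165 negative, with a median of 0.02. The gene called higher was Bmp10, an atrial ligand that binds endothelial receptors with Eng as a co-receptor, at 14.7, 22.5 and 27.1 CPM in CharmeWT pools and 46.1 and 45.6 CPM in CharmeKO pools (log2 fold change 1.10 ± 0.25, adjusted p = 0.0821). Besides Nrp2, Cxcl12 was called lower. This chemokine guides the growth of coronary vessels, and it was at 126, 129 and 144 CPM in CharmeWT pools and 74.7 and 84.3 CPM in CharmeKO pools (-0.74 ± 0.17, adjusted p = 0.0883). For these 3 genes the CharmeKO pools were near each other and outside the CharmeWT range. Klf2, a factor induced by blood flow, was at 71.9, 81.7 and 70.1 CPM in CharmeWT pools, 30.8 CPM in CharmeKO pool 1 and 61.6 CPM in CharmeKO pool 2, low in both (-0.69 ± 0.27, adjusted p = 0.228). None of the 5 endocardial genes and none of the 6 tip cell genes was called. Ackr1, Ccl21a and Gdf2 had too few counts for testing.

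Markers of other cells of the vessel wall and of cycling cells were also measured. Of 6 mural genes, of pericytes and smooth muscle, 5 had negative fold changes, with a median of -0.54, and none was called. Both CharmeKO pools lay below every CharmeWT pool for 3 of them (Pdgfrb, Kcnj8 and Cspg4), where 18.2% of all genes did so, and the groups overlapped for the other 3. The most abundant were Acta2, the only positive one (502 to 1537 CPM in CharmeWT, 948 and 1214 CPM in CharmeKO), and Rgs5 (215 to 299 CPM in CharmeWT, 222 and 144 CPM in CharmeKO). All 5 proliferation genes were called higher in CharmeKO, where 1.53% of all genes were. Their summed level was 232 to 330 CPM in CharmeWT pools and 1202 and 650 CPM in CharmeKO pools. They were led by Mki67 (88.2 to 126 CPM in CharmeWT, 411 and 220 CPM in CharmeKO) and Top2a (70.1 to 106 CPM in CharmeWT, 397 and 180 CPM in CharmeKO). Their part in the endothelial values was not tested.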

How the data were processed

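RNA-seq libraries of polyA RNA (Illumina Stranded mRNA Prep) were made from 3 CharmeWT and 2 CharmeKO pools. The authors trimmed the reads, discarded those under 35 nt, used STAR for alignment to GRCm38, and took fragment counts on the reverse strand for Ensembl release 87 genes. The deposited values used here are these raw counts. The deposited FPKM table was not used, and FPKM were computed from TMM-normalized counts and GENCODE M21 exon lengths, so levels depend on the annotated isoforms. Genes reaching 10 counts in 2 or more pools were tested in edgeR 4.0.16 (R 4.3.3) by the quasi-likelihood test with Benjamini-Hochberg adjustment. The study's methods name the likelihood ratio test, which was run as an alternative with DESeq2 1.42.0 and others. Calls required an adjusted p under 0.1, with 1 FPKM or more on average in either genotype, the limits of the study. The length and GC correction removed, pool by pool, a spline trend (4 degrees of freedom for each property) fitted over all tested genes. The members, subtypes and lists were chosen with earlier results of these data known. All members are accounted for. Per-pool values were given in full for the 3 most abundant of each subtype, the 5 with the largest CharmeKO pool ratio and the 3 of lowest p, and for other members chosen after their values were seen. Totals per pool were between 16721055 and 21646378 counts. Reads carry no molecular identifiers, so intervals cover counting error only. Pools of one genotype are not stated to come from separate litters, so p-values measure the spread between pools, which may be technical. The scripts were tested on simulated data.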

Additional observations from a re-analysis of the deposited data

How the results depend on the processing

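Over 18 alternatives, 663 of 720 fits of a single member kept the direction and side of the threshold. Another 35 passed the threshold where the fit to all pools did not, 21 changed sign with no call in either fit, and 1 reversed with a call. The reversal was that of Plvap, from 0.03 ± 0.30 (SE) in the fit to all pools to -0.67 without CharmeKO pool 2. Without CharmeKO pool 1 Plvap was at 0.49, the same sign as in the fit to all pools. In all, 15 members changed sign in some setting.

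The count of members called lower was 2 in likelihood ratio testing, 3 with DESeq2 and 1 with the length and GC correction, and the count called higher was 1 by each of the first pair. Leaving out a pool in turn gave 0 to 20 members lower and 0 to 5 higher, and a median log2 fold change of the members between -0.56 (without CharmeKO pool 2) and -0.039 (without CharmeKO pool 1). Over all genes, 227 were called higher and 78 lower. The likelihood ratio test gave 584 and 349, DESeq2 gave 645 and 477, the robust form 51 lower, an adjusted p under 0.05 gave 97 and 14, the length and GC correction 125 lower, and the correction with the replicate block 89 and 42. Without 1 pool the counts ran from 0 to 2336 higher and from 0 to 2270 lower: 639 in all without CharmeKO pool 1, 4606 without CharmeKO pool 2, 2 without CharmeWT pool 1, 187 without CharmeWT pool 2 and 0 without CharmeWT pool 3, where 1315 genes had an unadjusted p under 0.05. Apart from the smaller number of pools, the cause was not tested.

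Pools share replicate numbers, but nothing states that a number pairs them. Deviations from the group means correlated at 0.137 for number 1 and 0.0778 for number 2. CharmeWT pool 3 and CharmeKO pool 2, of unlike numbers, correlated at 0.0587. With 2 CharmeKO pools their deviations mirror each other, so these values cannot show whether pools were paired. With the replicate block, 150 genes were called higher and 60 lower and 0 members in either direction.

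RLE and upper-quartile factors gave a median CharmeKO pool ratio of -0.35 and -0.39. Depth limited Mmrn1 most, with 39 to 112 counts per pool.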
